A study of Rattus norvegicus with 10 samples.

Results

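The muscle of arthritic rats after 34 days of acupuncture (AP_34d) was compared with that of arthritic rats 1 hour after acupuncture (AP_1h), to ask which early differences from the level before therapy were still there late and which were lost. The comparison takes 4 of the 10 libraries, 2 on each side. The other 6 are 2 from before therapy (RA_0), 2 taken 1 hour after placebo (PLA_1h) and 2 taken after 34 days of placebo (PLA_34d), and they enter here only as references. Of 17221 transcripts in the table, 9871 (57.3%) had at least 1 CPM in both libraries of AP_34d or of AP_1h and were compared. CPM here are read counts scaled by library size and a further correction factor for each library.

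All animals, controls included, were female Wistar rats with collagen-induced arthritis (CIA), which models rheumatoid arthritis (RA): immunization with bovine type II collagen sets off joint inflammation. In the AP groups, called mechanical stimulation in the study, thin steel needles were inserted on both sides at points of the lower back and the tibia and twirled, in sessions repeated every other day. The PLA groups received sterile saline into the peritoneum, with no twirled needle, and all animals were shaved and had ether for sampling. Tissue was taken at sacrifice from around the stimulated points, so every library is a different animal, the early and late AP libraries do not follow the same animals, and the labels name muscle beneath the epidermis without saying whether the back or the leg was sampled, where the study's text speaks of dorsal tissue. Age, the length of the disease, the number of sessions and the interval since the last session all differ between AP_1h and AP_34d and cannot be told apart, and the hour of day of sampling was not given in the sources used here. With 2 animals a group, every p measures only the spread between these few libraries.

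Skeletal muscle answers use and stress by turning whole gene programs up or down. Mechanical load and fibre type are read from sarcomere and Z-disc proteins, with slow fibres holding their own set of myosin, troponin and calcium pump genes. Fasting, stress hormones of the glucocorticoid class and loss of innervation raise the ubiquitin ligases that mark muscle protein for breakdown, together with genes that shift fuel use from glucose to fat. Most muscles also run a daily clock, in which the activator Arntl (also called Bmal1) and the output gene Dbp peak at opposite hours.

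The promoters of 3 genes that were high at 1 hour and remained high late are shown, because 2 of them, the metallothioneins Mt1a (now named Mt1) and Mt2A, lie side by side and moved together, and the third, Arntl, was the called early difference that stayed. Metallothioneins are small proteins that bind zinc and copper. Each sequence is the RefSeq stretch on build GRCr8 from 250 bases before to 50 after the annotated start, and all 3 genes were found there. Capitals mark TGCGCNC or TGCACNC, spellings of the metal response element core, on either strand in the metallothioneins, and AGGTCA, a core site bound by many nuclear receptors, in Arntl. No 2 marked matches overlap.
Mt1a, chr19:10832926-10833225, minus strand: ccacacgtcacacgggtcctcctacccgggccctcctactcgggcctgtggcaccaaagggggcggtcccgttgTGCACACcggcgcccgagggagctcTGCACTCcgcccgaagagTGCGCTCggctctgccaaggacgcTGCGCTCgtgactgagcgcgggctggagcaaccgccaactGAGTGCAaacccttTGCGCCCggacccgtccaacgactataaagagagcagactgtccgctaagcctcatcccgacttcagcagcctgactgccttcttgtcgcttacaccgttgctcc
Mt2A, chr19:10838659-10838958, minus strand: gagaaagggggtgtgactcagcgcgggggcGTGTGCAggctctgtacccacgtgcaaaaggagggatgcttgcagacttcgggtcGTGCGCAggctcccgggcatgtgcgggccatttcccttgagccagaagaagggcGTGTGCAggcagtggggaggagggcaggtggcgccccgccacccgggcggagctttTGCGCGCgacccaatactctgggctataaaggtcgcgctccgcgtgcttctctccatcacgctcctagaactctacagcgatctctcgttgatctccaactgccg
Arntl, chr1:176766078-176766377, plus strand: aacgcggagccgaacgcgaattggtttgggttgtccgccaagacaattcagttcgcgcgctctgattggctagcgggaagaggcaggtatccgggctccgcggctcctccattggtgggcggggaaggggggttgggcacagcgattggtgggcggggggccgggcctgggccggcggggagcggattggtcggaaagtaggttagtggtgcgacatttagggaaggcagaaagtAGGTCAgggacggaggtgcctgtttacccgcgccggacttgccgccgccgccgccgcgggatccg
The Mt1a window held 6 metal response element matches and the Mt2A window 4. Among 33469 rat promoter windows of the same length, 24.2% held at least 1 such match, 0.439% at least 4 and 0.0388% at least 6. By spelling, TGCGCNC was found in 14.1% and TGCACNC in 12.2% of the windows. In both metallothionein windows 1 match ran from -55 to -49 relative to the start. The Arntl window held AGGTCA once, as did at least once 16.2% of all windows. A match is a description of letters, and these data did not measure binding.

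The libraries held 5371687 to 8899521 reads. After scaling 1 CPM stood for 4.19 to 10.1 reads, and intervals or floors from such depths cover counting error only. All were muscle by their markers: of 7 defining genes 6 were in the table, with no library under 2790 CPM for any of them. One library stood apart outside the compared groups: PLA_34d replicate 1 held 694 CPM summed over B cell and lymph node markers, against at most 18.5 CPM in every other library, and 249 CPM over T and cytotoxic cell markers, against at most 42.6 CPM. Every value below that uses PLA_34d therefore also uses this library. In a piece of tissue, fewer cells of a type and less RNA per cell cannot be told apart.

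No transcript passed an adjusted p under 0.05 between AP_34d and AP_1h in limma's test (0 of 9871, 0% called, smallest adjusted p 0.0839). At an unadjusted p under 0.05 there were 545 (5.52%). On the recovered reads, limma-voom and edgeR's quasi-likelihood test also called 0, while DESeq2 called 42, 29 higher and 13 lower, with Cst7, Kera, Hoxa10, Mybpc1, RGD1561161 and G0s2 among them. The study's own rule, an unadjusted p under 0.05, 2-fold or more, with the compared libraries averaging 1 CPM or more, was met by 201 transcripts higher at 34 days (2.04%) and 140 lower (1.42%). It is used below as a descriptive cut and its members did not pass the adjusted test. The 2 AP_34d libraries lay above both AP_1h libraries for 17.2% and below both for 16.3% of all transcripts compared, and for 337 of these 341 the groups did not overlap. Of the 341, 58.9% were higher, and 46.3% of 283 were when the 20 most abundant transcripts were left out of the library sizes.

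Most of the late-against-early differences were places where the 1 hour libraries stood apart. Of the 341 transcripts, 195 (57.2%) had both AP_1h libraries outside the range of the other 8 libraries of the series, and 67 (19.6%) had both AP_34d libraries outside that range. Over all transcripts compared these shares were 8.45% and 3.70%. The 341 were chosen for a difference between AP_1h and AP_34d, which by itself raises both shares, so nothing is read from the excess. The split was wider among the 201 that were higher at 34 days, with 140 (69.7%) set apart by AP_1h and 32 (15.9%) by AP_34d. Among the 140 that were lower, the numbers were 55 (39.3%) and 35 (25%). Measured from RA_0, 158 of the 341 (46.3%) were 2-fold away at 1 hour and not at 34 days, 46 (13.5%) were away at 34 days only, 14 (4.11%) at both times and 123 (36.1%) at neither.

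The early differences were taken from AP_1h against RA_0, where 3 transcripts passed the adjusted test (0.0304% called) and the study's rule was met by 258 transcripts higher (2.61%) and 342 lower (3.46%). For each of these 600 the share still present at 34 days was the AP_34d minus RA_0 difference divided by the AP_1h minus RA_0 difference, both on log2(CPM + 1). Among the 258 early-high transcripts, 144 (55.8%) kept at least 0.5 of the difference, 102 (39.5%) kept less and 12 (4.65%) lay on the other side of the starting level, with a median share of 0.53. Among the 342 early-low transcripts, 131 (38.3%) kept at least 0.5, 177 (51.8%) kept less and 34 (9.94%) had crossed over, with a median share of 0.42. Both differences subtract the same 2 RA_0 libraries, so a deviation of those libraries alone reads as a difference that was kept. A transcript that did not reach 1 CPM in both libraries of an AP group could not enter, and 179 that reached 1 CPM in both RA_0 libraries were left out for that reason. An early-low transcript under 1 CPM in AP_1h entered only if both AP_34d libraries reached it, so those that stayed low were left out. With 1 CPM in both libraries of any of the 5 groups as the filter, 299 of 628 early transcripts (47.6%) counted as kept, against 275 of 600 (45.8%).

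**Figure D1:**
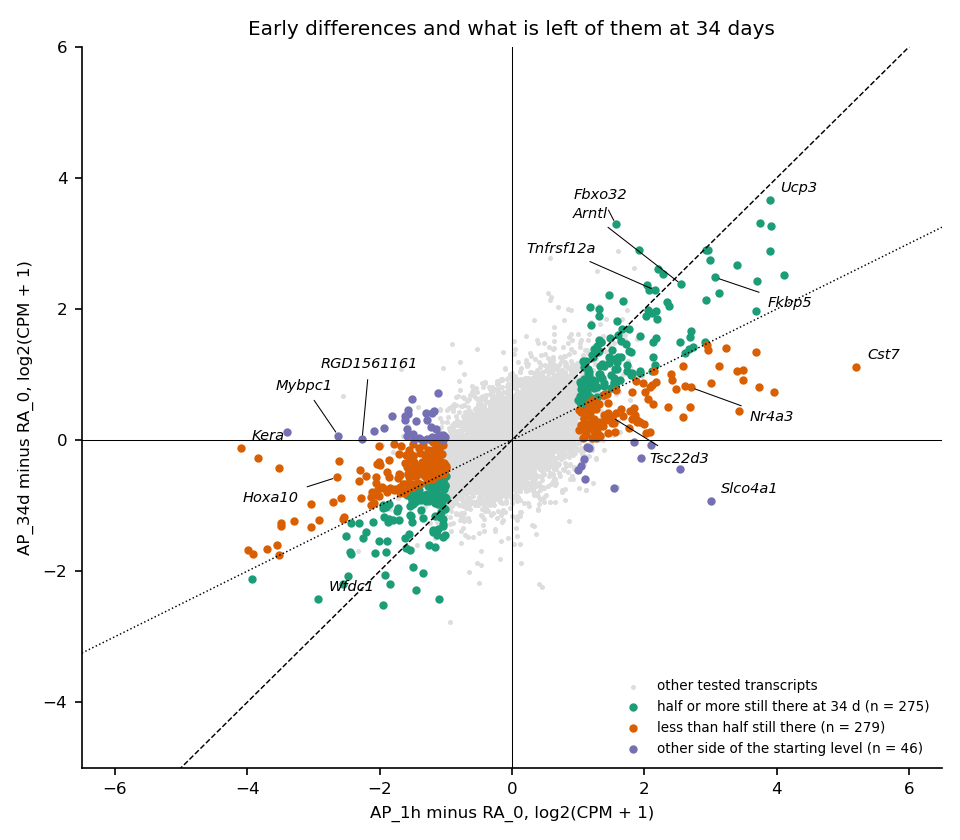
Each point is 1 transcript, with AP_1h minus RA_0 on the x axis and AP_34d minus RA_0 on the y axis, both on log2(CPM + 1). Coloured points are the 600 that met the study's rule at 1 hour, 275 with at least 0.5 of the difference left, 279 with less and 46 on the other side of the starting level. The dashed line is full persistence, the dotted line a share of 0.5, and the points spread from full persistence (Ucp3, Arntl) to none (Cst7, RGD1561161).

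The split into kept and lost moved with single libraries. Of the early transcripts, between 28.8% and 65.6% counted as kept when each library of the series was left out in turn, against 45.8% with all 10. Measured from RA_0, 151 transcripts met the study's rule higher (1.53%) and 117 lower (1.19%) at 34 days, and these included 70 of the 258 early-high and 50 of the 342 early-low transcripts in the same direction. The direct late-against-early comparison shares the 2 AP_1h libraries with the choice of the early transcripts, with the opposite sign, so a deviation of those libraries alone gives a return toward the start and nothing is read from the direction. In it, 57 of the 258 early-high transcripts were lower by the rule and 1 higher, and 98 of the 342 early-low transcripts were higher and 1 lower.

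A reading that shares no library with the early comparison set AP_34d against PLA_34d, though both take their spread from the fit over all 10. Of all transcripts compared, 1.43% met the study's rule higher and 1.87% lower in AP_34d than in PLA_34d. Of the 258 early-high transcripts, 46 (17.8%) were higher by that rule and 4 lower. Of the 342 early-low transcripts, 22 (6.43%) were lower and 1 higher. Under every setting tried, the early-high share lay between 10.2% and 31.5% against 0.80% to 3.02% of all transcripts, and the early-low share between 3.31% and 13% against 0.962% to 7.34%. The 46 dropped to 25 without AP_1h replicate 1, stood at 40 without the lymph node marked PLA_34d replicate 1 and reached 87 without AP_34d replicate 1. The 22 dropped to 13 without RA_0 replicate 2 and to 14 without AP_1h replicate 1, and reached 46 without PLA_34d replicate 2.

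**Figure D2:**
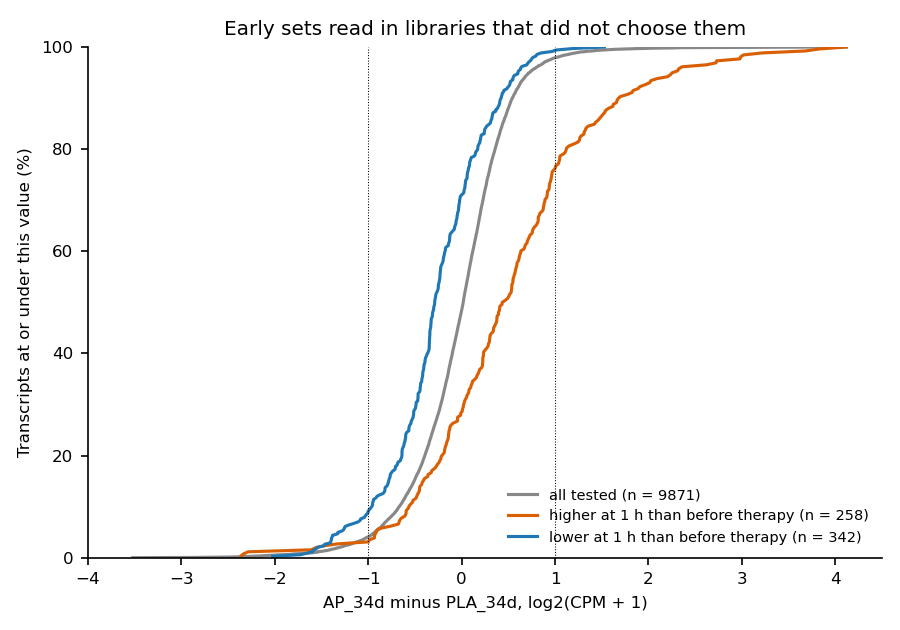
Cumulative share of transcripts (y axis, %) at or under each AP_34d minus PLA_34d difference on log2(CPM + 1) (x axis), for the early-high and early-low transcripts and for all compared. The median was 0.45 for the 258 early-high and -0.29 for the 342 early-low transcripts, and dotted lines mark 2-fold either way.

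Arntl, the transcription factor that drives the positive arm of the clock, was the clearest early difference that stayed. It stood at 2.62 and 3.86 CPM before therapy, at 22.6 and 24.9 CPM in AP_1h and at 24.8 and 17.5 CPM in AP_34d. One late library lay between the early ones and the other below them, and all 4 lay above the 2 RA_0 libraries. It had passed the test at 1 hour (log2 difference 2.56 ± 0.32 SE, adjusted p = 0.0404) and 0.93 of that difference was left, while AP_34d and AP_1h differed by -0.18 ± 0.32. The placebo libraries read 17.2 and 14.2 CPM at 1 hour and 7.07 and 5.69 CPM at 34 days, so the early placebo animals were also above RA_0. The file places it at chr1:171062181-171162426 of build rn4, on the plus strand.

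Of the 9 genes whose hour is opposite to Arntl, 2 were lower by the rule at 1 hour (median -0.15) and 1 at 34 days (median -0.41), both against RA_0. Dbp, a clock output transcription factor, read 426 and 418 CPM before therapy, 167 and 81.3 CPM in AP_1h and 58.6 and 143 CPM in AP_34d, against 137 and 181 CPM in PLA_1h and 249 and 295 CPM in PLA_34d. The early placebo libraries were thus low as well. The AP libraries of both times overlapped each other and lay below all RA_0 and PLA_34d libraries (late minus early -0.35 ± 0.47). Nr1d1, the clock repressor also called Rev-erb alpha, went another way: 33.2 and 29.6 CPM before therapy, 13.7 and 9.24 CPM in AP_1h, and 25.8 and 21.1 CPM in AP_34d. Its late level was higher than its early one without overlap, just under 2-fold (0.99 ± 0.31), and it overlaps another annotated gene. Of the 4 genes of the Arntl phase, 2 were higher by the rule at 1 hour and 3 at 34 days, while none of the 4, and none of 9 genes of the Dbp phase, met it between the times. Per1, Per2 and Per3, which encode repressors of the clock, had AP_34d minus AP_1h values from -0.72 to 0.32, with SEs of 0.48 to 0.52.

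A few genes of fat use and protein breakdown also stayed high. Ucp3, a mitochondrial carrier protein of muscle that rises with fasting, read 36.3 and 103 CPM before therapy, 858 and 1008 CPM in AP_1h and 1177 and 528 CPM in AP_34d. All 4 AP libraries lay above the others, which reached 403 CPM in PLA_1h and 69.7 CPM in PLA_34d, and the late minus early difference was -0.24 ± 0.58. Against PLA_34d the difference was 4.12 ± 0.58 (adjusted p = 0.137), which did not pass. Pdk4, the kinase that shuts off glucose oxidation, named here after its values were seen, had 119 and 319 CPM before therapy, 561 and 979 CPM in AP_1h and 1946 and 1094 CPM in AP_34d. Its late libraries were both above the early ones (0.98 ± 0.67). The group as a whole was not high early: of 20 fuel switch genes, 2 were higher by the rule at 1 hour (median 0.08), and 3 were higher and 1 lower at 34 days (median 0.30). Of the same 20, 1 was higher (Cd36, a fatty acid transporter) and 1 lower (G0s2, described below) by the rule between the times. The median difference of the 20 was 0.67, beside 0.00 over all symbols. Their summed level was 6748 and 6149 CPM in AP_1h and 11763 and 5430 CPM in AP_34d, so in the sum only late replicate 1 was above the early libraries.

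Among the ubiquitin ligases of muscle wasting, Fbxo32 (atrogin-1) was higher late than early: it read 21.2 and 33.1 CPM before therapy, 164 and 39.5 CPM in AP_1h and 148 and 490 CPM in AP_34d. The early and late libraries overlapped, the late minus early difference was 1.73 ± 0.66 (adjusted p = 0.863), and the share of 2.1 means that the late difference from RA_0 was the larger. Trim63 (MuRF1), its partner ligase, read 306 and 276 CPM before therapy, 2666 and 680 CPM in AP_1h, 1375 and 2296 CPM in AP_34d and 196 and 364 CPM in PLA_34d. The early libraries enclosed the late ones and all 4 stood above RA_0 and both placebo groups. Ctsl1, the lysosomal protease cathepsin L, also had wide pairs, with 148 and 176 CPM before therapy, 867 and 230 CPM in AP_1h and 598 and 938 CPM in AP_34d. Trim63 and Ctsl1 were singled out after their values were seen. Of 14 genes of the atrophy and FoxO list, 4 were higher by the rule at 1 hour, 7 at 34 days and 7 in AP_34d against PLA_34d, and between the times 2 were higher and none lower, with a median of 0.59.

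Tnfrsf12a, the receptor for the cytokine TWEAK that appears on injured or denervated muscle, was nearly the same at both times. It read 10.7 and 9.95 CPM before therapy, 37.2 and 66.6 CPM in AP_1h and 58.0 and 50.9 CPM in AP_34d, against 6.51 and 9.81 CPM in PLA_34d. The 4 AP libraries were the highest of the series, their times did not separate (0.12 ± 0.36), and AP_34d exceeded PLA_34d by 2.62 ± 0.36 (adjusted p = 0.137). Fkbp5, a glucocorticoid-induced cochaperone of the glucocorticoid receptor, read 21.5 and 21.7 CPM before therapy, 239 and 149 CPM in AP_1h and 229 and 68.3 CPM in AP_34d, with 108 and 154 CPM in PLA_1h. Its late libraries differed from each other more than the groups did (-0.59 ± 0.50), and the early placebo libraries were high as well.

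The metallothioneins with the promoters shown above counted as kept, yet below the early mean. They are paralogs, and their reads could be shared in part. Mt2A read 6.92 and 22.3 CPM before therapy, 618 and 88.9 CPM in AP_1h, 63.7 and 93.1 CPM in AP_34d, 80.2 and 61.2 CPM in PLA_1h and 1.79 and 12.2 CPM in PLA_34d. Mt1a read 4.77 and 17.5 CPM, 426 and 41.1 CPM, 53.5 and 55.4 CPM, 68.5 and 32.3 CPM, and 2.92 and 8.10 CPM in the same order. The early placebo libraries were about as high as the late AP ones. In both genes AP_1h replicate 1 was far above its partner, and the late libraries lay near or between the early ones and above PLA_34d, with late minus early differences of -1.60 ± 0.91 for Mt2A and -1.28 ± 0.94 for Mt1a. Both were chosen after their values were seen.

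**Figure D3:**
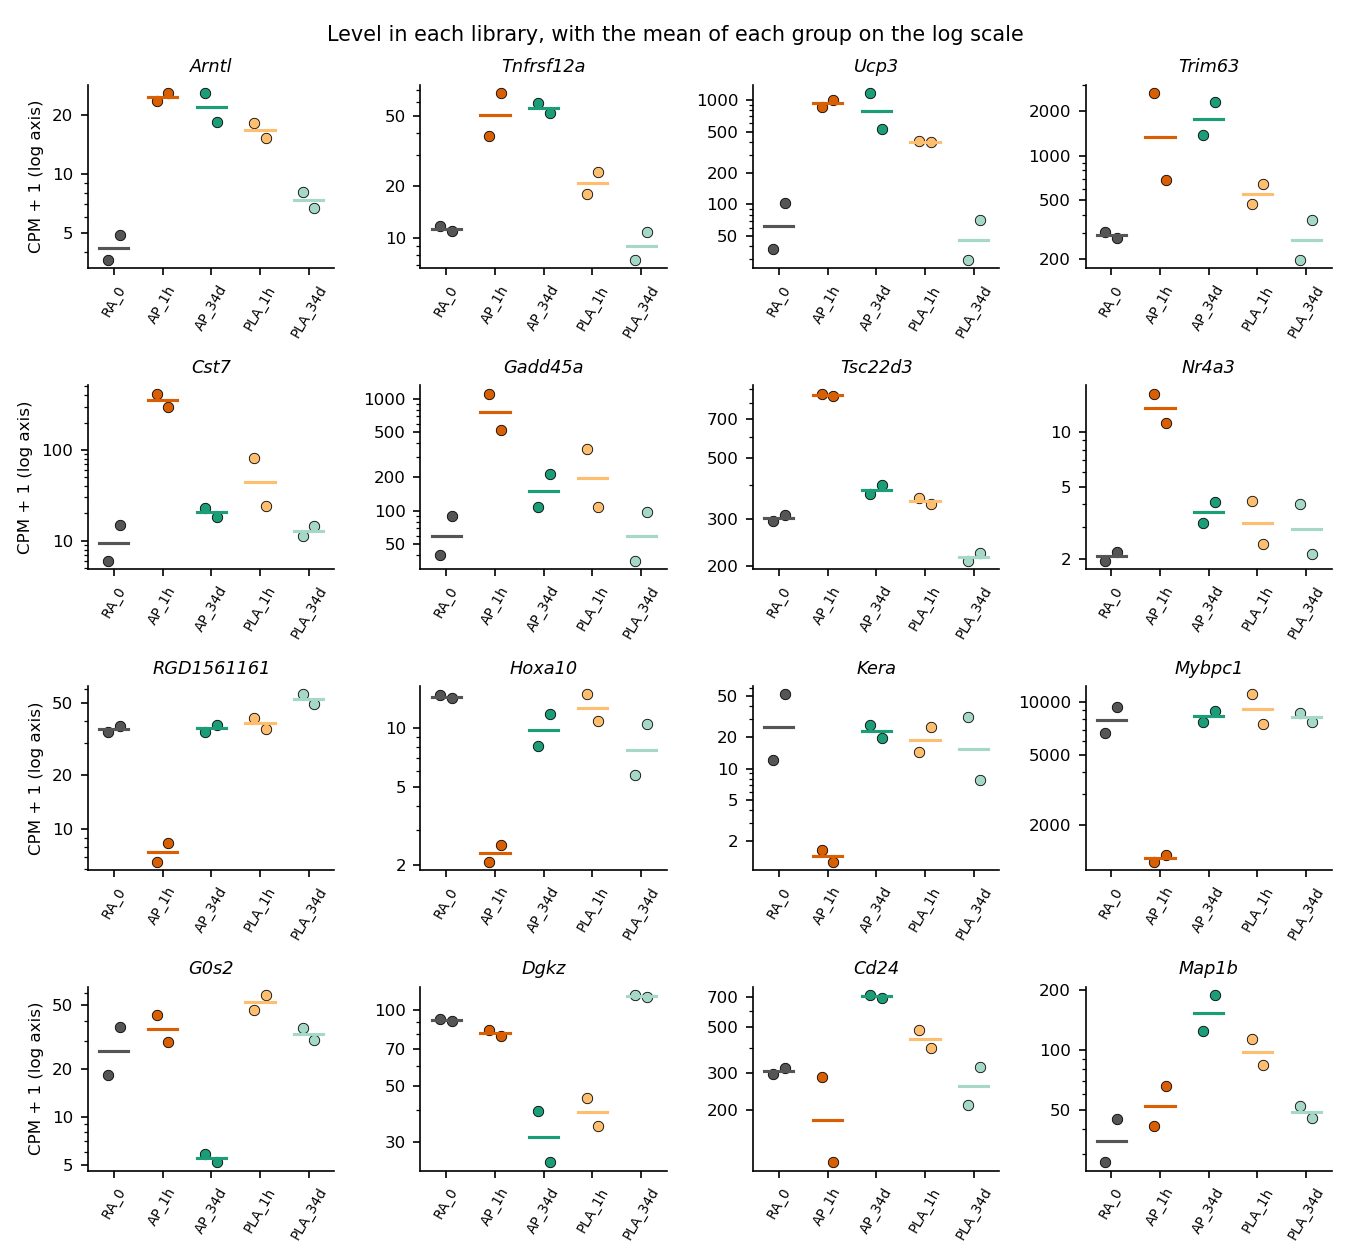
CPM + 1 on a log axis in each of the 10 libraries for 16 genes, with a bar at the mean of each pair on the log scale. The top row holds genes that stayed high, and the next row genes that were high at 1 hour and lower at 34 days. Below them are genes that were low at 1 hour and higher at 34 days, and then genes that differed at 34 days.

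Cst7 was the largest early difference and was mostly lost. It encodes cystatin F, an inhibitor of lysosomal cysteine proteases made by leukocytes. It read 5.01 and 14 CPM before therapy, 416 and 293 CPM in AP_1h and 22.1 and 17.3 CPM in AP_34d, with 81.4 and 23.2 CPM in PLA_1h. Both early AP libraries stood far above all others, and the late ones lay just above RA_0. It passed at 1 hour (5.21 ± 0.57, adjusted p = 0.0338), 0.21 of that was left, and the late minus early difference of -4.09 ± 0.57 did not pass (adjusted p = 0.0961). Its rn4 position is chr3:141188442-141199756, plus strand.

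Tsc22d3 and Gadd45a, both tied to stress responses, came closer to the starting level again. Tsc22d3, the glucocorticoid-induced leucine zipper protein, read 292 and 307 CPM before therapy, 864 and 848 CPM in AP_1h and 368 and 397 CPM in AP_34d. Replicates lay close together, the groups did not overlap, and the late level was lower by 1.16 on the log2 scale (-1.16 ± 0.30). Of 13 glucocorticoid targets, 6 were higher by the rule at 1 hour, 5 were higher and 1 lower at 34 days, and between the times 2 were lower and none higher. The list as a whole was as high late as early, with medians of 0.90 and 0.90 against RA_0 and of -0.05 between the times. The metallothioneins are counted in that list. Gadd45a, a growth arrest and DNA damage protein that also rises in denervated muscle, read 38.9 and 87.9 CPM before therapy, 1109 and 526 CPM in AP_1h and 106 and 212 CPM in AP_34d (-2.34 ± 0.70). Its early placebo libraries stood at 355 and 107 CPM, between the others.

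Chrna1, the alpha subunit of the muscle acetylcholine receptor, which spreads outside the synapse after denervation, read 18.4 and 22.4 CPM before therapy, 128 and 62.1 CPM in AP_1h and 23 and 21.2 CPM in AP_34d. The early AP libraries were high and so was PLA_1h replicate 1 at 192 CPM, and the late AP libraries sat at the RA_0 level (-1.97 ± 0.69). Musk, the kinase that organizes the junction, read 35.1 and 47.0 CPM in AP_1h but 2.54 and 29.7 CPM in AP_34d, so only 1 late animal had returned to the RA_0 levels of 1.67 and 7.43 CPM. It was singled out after its values were seen. In the list of 11 junction and denervation genes, 5 were higher by the rule at 1 hour and 1 at 34 days, and 2 were lower between the times. The same list had 6 members lower by the rule in PLA_34d than in PLA_1h, where 0.74% of all transcripts were lower and 1.11% higher.

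Inflammatory signals were high early in most members, and the late animals differed from each other. Of the 20 genes on the list 16 were tested, of which 11 were higher by the rule at 1 hour, 1 at 34 days, and 2 lower between the times. None of the 16 had a late mean above its early mean (median -1.02), but for 4 alone both late libraries were below both early ones, beside 16.3% of all transcripts. Their summed level was 400.3 and 280 CPM in AP_1h and 120 and 448 CPM in AP_34d, so that late replicate 2 held the highest sum of the series and late replicate 1 was near the RA_0 sums of 94.5 and 121 CPM. Cxcl13, a chemokine that draws B cells, read 0.477 and 2.38 CPM before therapy, 33.8 and 15.5 CPM in AP_1h and 2.93 and 1.34 CPM in AP_34d (-2.98 ± 1.05), but its highest level was 58.0 CPM in PLA_34d replicate 1, the library with the lymph node markers. C3, the central complement component, read 15.7 and 1.96 CPM in AP_1h and 0.586 and 1.2 CPM in AP_34d, so its early level rested on AP_1h replicate 1. Mmp12, a macrophage elastase, was at 0 in both RA_0 libraries, at 4.65 and 3.64 CPM in AP_1h and at 0.391 and 0.448 CPM in AP_34d, the late values being near the 3-read floor of 0.297 to 0.716 CPM. Summed over 18 macrophage markers, none of them at 0 throughout, the libraries held 171 to 184 CPM in RA_0, 232 to 1050 CPM in AP_1h and 341 to 464 CPM in AP_34d, with the upper early value in replicate 1. The part of macrophage number in these differences was not tested.

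Other genes that were high at 1 hour and lower at 34 days were of several kinds. Nr4a3, an orphan nuclear receptor of the immediate early response, read 0.954 and 1.19 CPM before therapy, 15.2 and 10.2 CPM in AP_1h and 2.15 and 3.14 CPM in AP_34d (-1.90 ± 0.45). Fos, the textbook immediate early gene, gave no such order: 21.7 and 123 CPM before therapy, 137 and 37.1 CPM in AP_1h and 26.6 and 28.4 CPM in AP_34d, with the RA_0 libraries spanning most of the range. Of 16 immediate early genes 1 was lower by the rule between the times. Thrsp, a nuclear protein that promotes fat synthesis, read 388 and 44.2 CPM in AP_1h and 15 and 18.2 CPM in AP_34d (-2.92 ± 0.93), again with its early height in replicate 1. Slco4a1, a transporter of thyroid hormone and other organic anions, read 11.8 and 43.5 CPM in AP_1h and 0.391 and 0.747 CPM in AP_34d, with 0.716 and 4.16 CPM before therapy (late minus early -3.94 ± 0.69, adjusted p = 0.454). Ogfrl1 and Serpina6, the latter encoding the carrier of corticosteroids in blood, kept shares of 0.44 and 0.29. Their late minus early differences were -1.10 ± 0.28 and -2.12 ± 0.52. Ogfrl1 was not back at the starting level, with 45.9 and 47.4 CPM in AP_34d against 27.9 and 22.4 CPM in RA_0. Its placebo libraries reached at most 34.4 CPM.

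The early-low transcripts that returned were led by RGD1561161, now named Cspg4b, the transcript with the smallest adjusted p of the late-against-early comparison. It read 33.4 and 36.4 CPM before therapy, 5.62 and 7.42 CPM in AP_1h and 33.8 and 36.7 CPM in AP_34d, with 34.9 to 55.0 CPM in the 4 placebo libraries. Only the early AP animals were low, and the late ones had the RA_0 level again. Its difference of 2.28 ± 0.28 (adjusted p = 0.0839) mirrored the called early one of -2.26 ± 0.28 (adjusted p = 0.0404), and a share of -0.0066 was left. It lies at chr2:44703932-45210939 of rn4 on the plus strand and overlaps 2 other annotated symbols, so its reads are uncertain.

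Most tendon matrix genes tested were low at 1 hour and near the RA_0 level at 34 days. Kera, the corneal and tendon proteoglycan keratocan, read 11 and 50.6 CPM before therapy, 0.649 and 0.280 CPM in AP_1h and 25.2 and 18.8 CPM in AP_34d (3.97 ± 0.73, adjusted p = 0.512). Fmod, the collagen-binding fibromodulin, read 37.7 and 199 CPM, then 10.8 and 4.90 CPM, then 149 and 60.6 CPM in the same order (3.53 ± 0.86). In both genes the 2 early AP libraries were the lowest of all 10. Of 7 tested tendon genes, 5 (Kera, Fmod, Cilp2, Chad and Tnmd) were lower by the rule at 1 hour and higher by it between the times, and 1, the transcription factor Scx, was lower between the times, with medians of -3.40 and 3.10. Summed over the 7 tendon markers in the table, the levels were 110 to 129 CPM in AP_1h, 187 to 284 CPM in AP_34d and 98.2 to 393 CPM over the other 8 libraries including AP_34d. Scx and Tnmd are named to complete the count, after their values were seen, and Chad overlaps another symbol. Kera, Cilp2 and Chad were under 1 CPM in both AP_1h libraries and entered only through AP_34d, so the filter required their late level. How much tendon each piece of tissue held was not tested.

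Slow fibre genes were also low at 1 hour, but at 34 days none of the 14 had a mean above RA_0, and the animals agreed less. Myh7, the slow myosin heavy chain, which overlaps another annotated symbol and resembles Myh6, read 7398 and 4565 CPM before therapy, 361 and 372 CPM in AP_1h and 4064 and 813 CPM in AP_34d. The late animals differed several-fold from each other and both lay above the early ones (2.31 ± 1.29), and PLA_34d varied more, with 11934 and 499 CPM. Of 14 slow fibre genes, 12 were lower by the rule at 1 hour and 2 higher between the times. For 9 both late libraries were above both early ones, beside 17.2% of all transcripts. The median against RA_0 moved from -3.49 at 1 hour to -1.66 at 34 days. Their summed level was 24416 and 12315 CPM in RA_0, 1282 and 1472 CPM in AP_1h, 13682 and 2412 CPM in AP_34d, 5463 and 2529 CPM in PLA_1h and 23816 and 2245 CPM in PLA_34d. The early AP libraries had the lowest sums of all, but AP_34d, PLA_1h and PLA_34d each also held a library far below RA_0. The share of slow fibres in each piece was not measured, and an early loss of these transcripts and a sampled piece with fewer slow fibres cannot be told apart.

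Mybpc1, slow myosin binding protein C, which fast fibres also use, was steadier. It read 6682 and 9390 CPM before therapy, 1228 and 1339 CPM in AP_1h, 7695 and 8986 CPM in AP_34d and 7493 to 11126 CPM under placebo. The early AP libraries alone were low, and the late difference was 2.70 ± 0.59 (adjusted p = 0.592). Myh1, the fast IIx myosin heavy chain, read 36269 and 25920 CPM, then 6070 and 10230 CPM, then 32876 and 25877 CPM (1.89 ± 0.90). In the load-sensing Z-disc list, 4 of 10 genes were higher late by the rule (Ankrd2, Csrp3, Fhl1 and Nrap), beside 2.04% of all transcripts. All 10 had a higher mean late, with a median of 0.23. Their summed level was 1839 and 10071 CPM in AP_1h and 5734 and 6330 CPM in AP_34d, which overlap. Ankrd2 read 14.9 and 16.1 CPM in AP_1h and 535 and 43.0 CPM in AP_34d, so most of its late height was in replicate 1. Csrp3, the muscle LIM protein, read 406 and 128 CPM before therapy, 25.1 and 197 CPM in AP_1h and 1142 and 205 CPM in AP_34d (2.75 ± 0.98). Nrap, which anchors actin at the ends of fibres, read 17.4 and 13.4 CPM, then 1.41 and 7.84 CPM, then 16.4 and 24.2 CPM (2.18 ± 0.52).

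**Figure D4:**
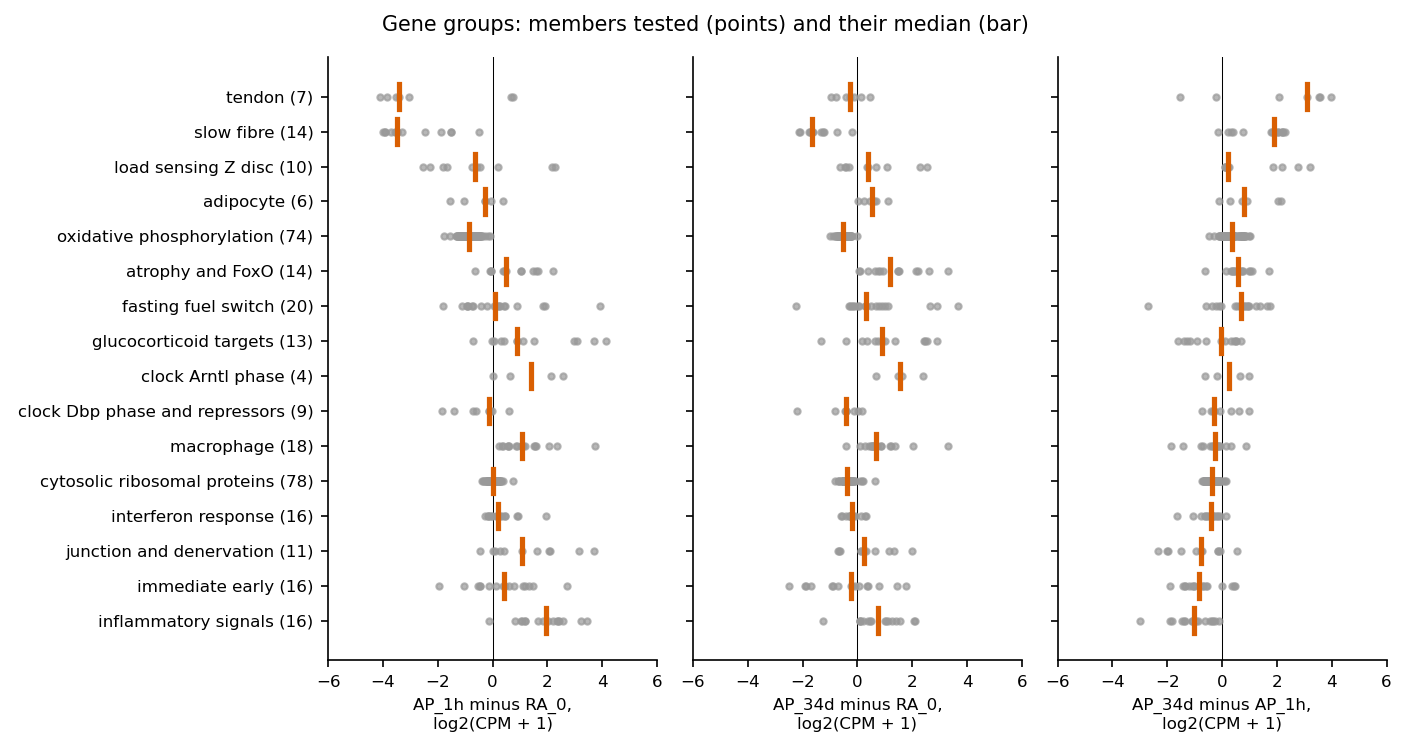
Log2(CPM + 1) differences of the tested members of 16 gene lists (points) and their medians (bars), from left to right at 1 hour against RA_0, at 34 days against RA_0 and between the times, where all symbols have medians of 0.01, 0.00 and 0.00. Slow fibre and tendon lists were at -3.49 and -3.40 early, and the atrophy and FoxO list moved from 0.48 early to 1.2 late.

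Positional genes were among the early-low transcripts that returned. Hoxa10, a homeobox factor of the hindlimb and lower trunk, read 13.6 and 13.2 CPM before therapy, 1.08 and 1.54 CPM in AP_1h and 7.03 and 10.8 CPM in AP_34d (2.08 ± 0.39, adjusted p = 0.512). Six2, a homeobox factor of tendon and muscle connective tissue, read 41.3 and 15.7 CPM, then 2.38 and 4.62 CPM, then 15 and 27.6 CPM (2.30 ± 0.48). Both early libraries were the lowest of the 10 in each. Hoxd10, another posterior gene on a different chromosome, had the opposite order, with 6.81 and 9.24 CPM in AP_1h against 2.15 and 2.09 CPM in AP_34d and 5.01 and 2.67 CPM in RA_0 (-1.52 ± 0.48). In a set of 5 posterior position genes 1 was thus higher and 1 lower by the rule. A difference in where the tissue was cut was not tested and cannot be told apart from the time point. Hoxa10 overlaps another annotated symbol.

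**Figure D5:**
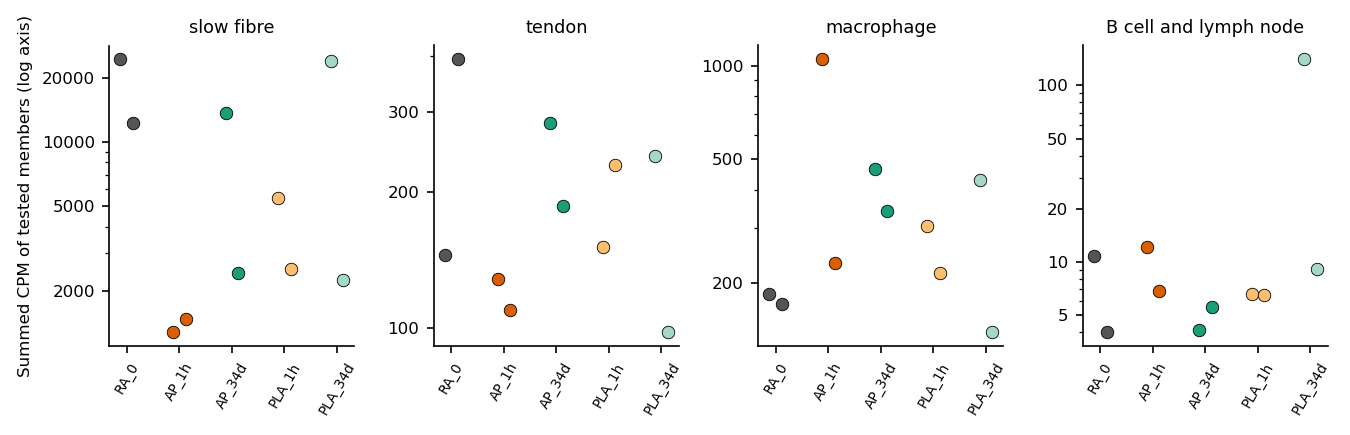
Summed CPM of the tested members of 4 marker lists in each library, on a log axis, 1 point per library. The early AP libraries held 1282 and 1472 CPM of slow fibre genes, the lowest of the series, and AP_1h replicate 1 held the highest macrophage sum at 1050 CPM.

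The remaining transcripts with the smallest p among those higher late were Lingo4, Pdzd2, Acsf2, RGD1564419, Ern1 and Synpo, with late minus early differences of 1.56 to 2.14 and adjusted p values of 0.512 to 0.592. Acsf2 overlaps Chad, and RGD1564419 overlaps Hoxa10, both named above. The strand setting of the counting was not given, so each pair could share reads and may not be separate differences. Nrap above and Elmo3 below also overlap other symbols. RGD1564419, under 1 CPM in both AP_1h libraries, entered the comparison only through AP_34d. Synpo, the actin-associated protein synaptopodin, read 201 and 152 CPM before therapy, 54.2 and 41.4 CPM in AP_1h and 169 and 119 CPM in AP_34d. Ern1, a sensor of unfolded protein in the endoplasmic reticulum also called IRE1 alpha, read 8.59 and 6.83 CPM, then 3.57 and 4.48 CPM, then 11.3 and 20.5 CPM. Its late libraries were above RA_0 as well as above the early ones. Myf6, a myogenic regulatory factor, ran against these structural genes, with 179 and 144 CPM before therapy, 821 and 915 CPM in AP_1h and 390 and 237 CPM in AP_34d (-1.51 ± 0.44).

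Among the early-low transcripts that stayed low, Wfdc1, a secreted protease inhibitor family member, read 104 and 51.1 CPM before therapy, 6.38 and 11.8 CPM in AP_1h and 20.7 and 7.77 CPM in AP_34d. The late and early libraries overlapped, all 4 lay below the other 6, and 0.83 of the early difference of -2.93 was left. Rcor2, a corepressor subunit, read 17.4 and 8.76 CPM, then 1.84 and 1.96 CPM, then 4.10 and 4.03 CPM, with a share of 0.64. Sbk1 and Zfp365 kept shares of 0.68 and 0.52. Zfp365 met the rule both as low at 1 hour and as higher late than early (1.16 ± 0.43), its late levels of 6.25 and 3.14 CPM lying between its early and its RA_0 levels.

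A smaller set differed at 34 days and not at 1 hour. G0s2, an inhibitor of the fat-cell lipase ATGL, read 17.4 and 35.6 CPM before therapy, 42.7 and 28.3 CPM in AP_1h and 4.88 and 4.18 CPM in AP_34d, against 29.3 to 57.0 CPM in the 4 placebo libraries. The 2 late AP libraries were the lowest of the series and the difference was -2.70 ± 0.38 (adjusted p = 0.0961). Against PLA_34d it was -2.58 ± 0.38 (adjusted p = 0.137). Aldh1a1, which makes retinoic acid, read 174 and 303 CPM in AP_1h and 62.7 and 87.1 CPM in AP_34d (-1.62 ± 0.38), but the placebo libraries, at 75.1 to 126 CPM, were as low. Dgkz, a diacylglycerol kinase, read 91.1 and 89.3 CPM before therapy, 82.4 and 77.7 CPM in AP_1h, 38.9 and 23.9 CPM in AP_34d and 114 and 111 CPM in PLA_34d. Its late level was the lowest in AP (-1.36 ± 0.31), while under placebo the low level was the early one, with 43.6 and 33.7 CPM.

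In the other direction, Cd24, a surface glycoprotein of regenerating muscle and of many blood cells, read 298 and 316 CPM before therapy, 286 and 111 CPM in AP_1h and 715 and 697 CPM in AP_34d. The late AP libraries were the highest of the series (1.98 ± 0.45). Map1b, a microtubule-associated protein, read 26.2 and 44.0 CPM, then 40.6 and 64.8 CPM, then 124 and 188 CPM, also the highest of the series (1.55 ± 0.37).

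The same interval was read in the placebo animals, where 1.11% of all transcripts met the rule as higher and 0.74% as lower. Of the 201 transcripts higher late under acupuncture, 113 were also higher in PLA_34d than in PLA_1h, and 1 met the rule there. Of the 140 lower ones, 63 were higher under placebo, and 3 met the rule as higher and 8 as lower. Over all transcripts 4747 of 9871 were higher. The difference of the 2 intervals, tested as an interaction in limma, passed for no transcript (0% called, 394 or 3.99% at an unadjusted p under 0.05, smallest adjusted p 0.508), while DESeq2 called 21, 9 higher and 12 lower. The smallest p values in each direction belonged to RGD1561161 (1.83 ± 0.39), Hoxa10 (2.80 ± 0.55) and Map1b (2.55 ± 0.53), and to Dgkz (-2.89 ± 0.43), Rasgrp2 (-2.92 ± 0.67) and Elmo3 (-2.19 ± 0.53).

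Of the gene sets used in the study, the set for wound healing in the Gene Ontology had 9 of 213 tested members higher and 6 lower by the rule between the times, and the set for response to wounding 14 and 11 of 391. The inflammatory response set had 5 and 8 of 261, after 22 higher and 7 lower at 1 hour and 13 higher and 1 lower at 34 days against RA_0. The epithelial to mesenchymal transition set had 5 and 5 of 204, its type 2 variant 3 and 1 of 56, the early healing set 5 and 2 of 62, and the early mechanotransduction set 2 and 0 of 34. The counts between the times stand beside 2.04% higher and 1.42% lower over all transcripts. Against RA_0, 2.61% of all transcripts were higher and 3.46% lower at 1 hour, and 1.53% higher and 1.19% lower at 34 days.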

How the data were processed

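RNA of the 10 muscle samples (2 per group, from the labels) was made into polyadenylated TruSeq libraries and sequenced on a HiSeq instrument. Per the labels and the submitters' processing notes the authors used CASAVA 1.8.2, trimmed with cutadapt 1.2.1, aligned to rn4 with Bowtie2 2.1.0, counted reads per transcript with HTSeq 0.5.4p3 and scaled with edgeR 3.4.2. The strand setting of the counting was not given in the sources used here, which leaves overlapping genes uncertain. The table deposited by the authors gives a signal for each transcript and library, reads per 1e+06 with TMM factors, called CPM here. They were whole multiples of 1 read for 100% of values within 0.01 reads, so reads were recovered for the count tests.

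Transcripts reaching 1 CPM in both AP_34d or both AP_1h libraries were kept (9871 of 17221), and 179 others that reached it in both RA_0 libraries were not tested. Values were tested as log2(CPM + 1) with limma 3.58.1 (R 4.3.3), eBayes and a mean trend, fitted over all 10 libraries with 1 mean per group (5 residual and 5.15 prior degrees of freedom), and adjusted by Benjamini-Hochberg over all 9871. Every adjusted p in the text comes from this limma fit. Fold changes on this scale understate those of low transcripts. edgeR 4.0.16 and DESeq2 1.42.0 were alternatives, with other pseudocounts, filters and scalings and each library left out. The fit was tested on simulated data. Python 3.11.15 and matplotlib 3.10.9 made the summaries and plots.

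Named genes were the 10 of smallest p per direction that met the study's rule without overlap, the 4 of smallest p in each class of early difference, 3 per direction of the interaction, list members that met the rule (up to 4) and a few genes that define a list, and any others are said to be chosen after their values were seen. The comparison, members and lists were chosen with earlier results of these data known. Lists count 1 transcript per symbol. Promoter sequences are RefSeq, build GRCr8, a build other than that of the coordinates in the table.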

Additional observations from a re-analysis of the deposited data

How the results depend on the processing

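With 2 animals a group, most values rested on single libraries. The count of 0 transcripts past the adjusted p between AP_34d and AP_1h became 1 (RGD1561161) with a mean of at least 5 CPM, 2 (Cst7 and Kera) with the compared groups fitted alone and 42 with DESeq2, and was 0 under every other setting and with each library left out. The 341 transcripts that met the study's rule became 177 with a pseudocount of 4 and ranged from 327 to 568 with each library left out, the 568 without AP_34d replicate 2, and edgeR's quasi-likelihood test gave 447. The 275 early differences counted as kept became 172 with a pseudocount of 4 and ranged from 181 (without AP_1h replicate 1, or AP_34d replicate 2) to 439 (without RA_0 replicate 2), with 414 without AP_34d replicate 1. The interaction, at 0, became 21 with DESeq2 and ranged from 0 to 93 with each library left out, the 93 without PLA_34d replicate 2. The 46 early-high transcripts above PLA_34d became 71 with DESeq2 and ranged from 25 to 87, and the 22 early-low ones below it ranged from 13 to 46. These last counts were added after seeing the data and were not run with the compared groups alone. Leaving the 20 most abundant transcripts out of the library sizes shifted the median difference by -0.10.

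The replicate numbers did not pair the samples, with correlations of deviations between groups from -0.47 to 0.46. With the replicate block, 0 transcripts passed and 354 met the rule. Over 117 named genes and 24 settings, 2592 of 2789 late minus early values kept direction and side of an unadjusted p of 0.05, 104 lost it and 76 gained it. Another 16 turned their sign while past it in neither fit, and 1 turned its sign while past it in a fit. The log2 change of Gpnmb, at -0.42, was among those that turned sign, and leaving out each library gave -2.35 to 1.5, the latter without AP_1h replicate 1. The causes were not tested.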

Other observations

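Several broad gene groups leaned one way between the times without a member past the study's rule. Of 74 nuclear-encoded subunits of oxidative phosphorylation, which build the respiratory chain, 64 had a higher mean in AP_34d than in AP_1h, with a median log2(CPM + 1) difference of 0.36 after -0.84 at 1 hour against RA_0, where 5 were lower by the rule. Ndufv3, a subunit of complex I, read 51.8 and 39.1 CPM before therapy, 12.8 and 12 CPM in AP_1h and 47.7 and 14 CPM in AP_34d, so 1 late animal was at the early level. The summed level of the 74 was 19730 and 28274 CPM in AP_1h and 48384 and 21799 CPM in AP_34d, so the lean rested on late replicate 1. Of 78 cytosolic ribosomal protein genes, 3 had a higher mean late, with a median of -0.38, after 0.01 at 1 hour, where 4922 of all 9746 symbols had a higher mean late. Their summed level was 16114 and 18203 CPM in AP_1h and 17897 and 9802 CPM in AP_34d, so this lean rested on late replicate 2. Rpl23 read 260 and 269 CPM in AP_1h and 204 and 126 CPM in AP_34d. Genes of one machine share regulation and library scaling and are not independent, and the part of scaling in these medians was not tested.

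The 34 constitutive proteasome subunits, which make up the machine that degrades ubiquitin-marked protein, had a median of 0.25 between the times. In AP_34d against PLA_34d it was 0.79, and 6 of the 34 were higher by the rule, beside 1.43% of all transcripts. Under placebo 0 of the 34 had a higher mean late than early (median -0.51). Their summed level was 5523 and 6396 CPM in AP_34d and 2651 and 4024 CPM in PLA_34d, the lower one in the lymph node marked replicate 1. In RA_0 it was 5188 and 3436 CPM. All 8 tested MHC class II genes, which present antigen, had a lower mean late than early (median -0.74), with summed levels of 1082 and 344 CPM in AP_1h and 487 and 218 CPM in AP_34d, which overlap. RT1-Db1 among them read 155 and 48.7 CPM in AP_1h and 60.2 and 19.7 CPM in AP_34d, with overlap, and 176 CPM in PLA_34d replicate 1. Of 16 interferon response genes 2 were lower by the rule. Ubd, a ubiquitin-like protein induced by interferon, read 2.62 and 3.86 CPM before therapy, 16.4 and 13.7 CPM in AP_1h, 8.20 and 1.79 CPM in AP_34d and 23.7 to 32.8 CPM in the 4 placebo libraries. One late AP library lay above RA_0 and the other below it, and both lay under every placebo library.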
